A study of Mus musculus with 6 samples.

Results

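RGS proteins, the regulators of G protein signalling, were followed as 8 transcripts in LSK cells of mouse bone, a sorted fraction that lacks lineage antigens, carries Sca-1 and Kit, and contains stem cells and multipotent progenitors. The 8 genes were Rgs1, Rgs2, Rgs3, Rgs10, Rgs14, Rgs16, Rgs18 and Rgs19, out of 38926 genes in the deposited expression table and out of 21 in it whose symbol is Rgs and a number. They were listed by name with results of these data known, and were in effect selected on their level, since all 8 averaged at least 1 FPKM over the libraries (fragments scaled by gene length and library depth). Nearest to that limit lay Rgs3 (1.10 FPKM) and Rgs16 (1.47 FPKM) on the inside and Rgs8 (0.289 FPKM) on the outside. Rgs12, at 5.54 FPKM, also passed that level but was not among the 8. Levels are therefore given as a description, without a test.

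The study compared haloperidol, an antipsychotic that blocks dopamine receptors, given by injection on 3 consecutive days, with its vehicle DMSO (3 libraries each). All mice were wild-type C57BL/6 animals aged 8 to 12 weeks, LSK cells came from collagenase-digested femur and tibia, and the compound or vehicle was also present while the cells were sorted. The labels do not say whether replicates were separate mice or pools, or whether the groups were sorted on different days, so the p-values here reflect the scatter among these libraries, which may be only technical. A sort day that ran with the groups and the treatment cannot be told apart. Each library held 8523556 to 8969024 reads assigned to genes, and a count of 0 allows up to 3 reads, which covers counting error only. Of the gate's own markers, Kit lay between 69.8 and 96.3 FPKM and Ly6a, which encodes Sca-1, between 125 and 147 FPKM in the 6 libraries. Among the lineage antigens, Cd8a had 0 reads and Cd3e and Ms4a1 stayed at or below 0.218 FPKM, and the 10 antigens listed summed to 19.6 ± 0.129 FPKM with haloperidol and 23.3 ± 2.82 FPKM with DMSO (SD, n = 3 each). The 7 gate and stem cell markers summed to 1046 ± 15.5 FPKM with haloperidol and 1165 ± 24.7 FPKM with DMSO (SD, n = 3 each), with 3 called lower. Flt3 was also called, as higher (limma adjusted p = 0.0484), but in 0 of 6 fits with a library left out. In bulk samples fewer cells of a type and less RNA per cell cannot be told apart.

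G protein-coupled receptors signal by loading the alpha subunit of a heterotrimeric G protein with GTP, and RGS proteins bind the active alpha subunit and speed up GTP hydrolysis, which shortens the signal. In blood cells they limit responses to chemokines, lipids and other ligands of such receptors. The small R4 proteins consist of little more than the RGS domain (Rgs1, Rgs2, Rgs16 and Rgs18, with Rgs3 as a larger relative), Rgs10 and Rgs14 belong to the R12 group, and Rgs19 belongs to the RZ group.

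With haloperidol, 5 of the 8 transcripts fell and 0 rose: Rgs18, Rgs19, Rgs3, Rgs14 and Rgs10. The most abundant, Rgs2, did not pass the test, nor did Rgs1 and Rgs16. At an unadjusted p under 0.05 1 was higher, Rgs1, which voom weights also called higher. Of 11436 genes tested, 13.0% were called lower, 11.5% higher and 24.5% in either direction at an adjusted p below 0.05 (limma, Benjamini-Hochberg over all genes tested). The same 5 transcripts were those whose haloperidol and DMSO libraries did not overlap, which held for 43.1% of all genes tested. The median log2 fold change was -0.37 over the 8 and 0.00 over all genes tested. Because the list was drawn up with these results known, its count is not independent evidence of a direction. Rgs3 averaged below 1 FPKM with haloperidol and entered the test only through its DMSO level, so the filter itself favoured its fall.

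Upstream sequence is shown for Rgs2, the most abundant of the 8, and for Rgs3, Rgs10 and Rgs19, which fell. The Rgs10 window lies before the RefSeq start but within the gene as given below from GENCODE, in an intron of a longer transcript there, and the Rgs2 window also reaches slightly into the GENCODE gene. RefSeq promoter entries (GRCm38.p6) matched 5 of the 8 genes, among them Rgs16, and no entry was matched for Rgs1, Rgs14 or Rgs18. Each line gives the 250 bases before the most upstream RefSeq start, 5′ to 3′ on the gene's own strand, and capitals mark matches on either strand to TGACG (a partial cyclic AMP response element), to the GC box GGGCGG or to the TATA box TATAAA. Also searched on both strands, with 0 matches in these windows, were the full cyclic AMP response element TGACGTCA, which contains the partial one and was found in 1.55% of all windows, the ETS core CCGGAAG in 6.91%, and the E-box CACGTG in 6.02%.
Rgs2, chr1:144004150-144004399, minus strand: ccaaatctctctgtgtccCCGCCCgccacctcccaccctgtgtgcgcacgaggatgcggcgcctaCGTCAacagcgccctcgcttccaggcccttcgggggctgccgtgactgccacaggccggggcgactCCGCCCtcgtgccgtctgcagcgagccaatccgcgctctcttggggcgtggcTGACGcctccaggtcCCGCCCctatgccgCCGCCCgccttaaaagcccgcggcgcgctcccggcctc
Rgs3, chr4:62559597-62559846, plus strand: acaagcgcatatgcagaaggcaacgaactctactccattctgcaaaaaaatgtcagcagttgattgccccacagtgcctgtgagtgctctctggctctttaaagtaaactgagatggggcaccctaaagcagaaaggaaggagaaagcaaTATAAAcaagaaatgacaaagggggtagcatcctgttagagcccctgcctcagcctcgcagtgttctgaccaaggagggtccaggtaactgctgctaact
Rgs10, chr7:128418173-128418422, minus strand: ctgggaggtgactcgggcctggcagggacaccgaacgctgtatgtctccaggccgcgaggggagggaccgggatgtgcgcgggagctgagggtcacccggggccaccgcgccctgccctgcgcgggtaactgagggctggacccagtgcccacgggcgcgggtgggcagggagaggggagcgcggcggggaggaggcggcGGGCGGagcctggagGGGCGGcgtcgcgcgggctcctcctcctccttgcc
Rgs19, chr2:181693978-181694227, minus strand: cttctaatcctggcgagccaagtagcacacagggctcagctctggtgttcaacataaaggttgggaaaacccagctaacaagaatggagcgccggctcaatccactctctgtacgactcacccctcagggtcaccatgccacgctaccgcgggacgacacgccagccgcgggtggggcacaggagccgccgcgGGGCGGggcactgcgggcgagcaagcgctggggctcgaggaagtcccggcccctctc
The Rgs2 window held 4 GC boxes, the Rgs10 window 2 and the Rgs19 window 1, and 32.7% of all 32851 windows of this length held at least 1. Rgs2 also held 2 copies of the partial cyclic AMP response element, which 17.8% of all windows held, starting 185 and 67 bases before the start. Rgs3 held 1 TATA box 100 bases before the start, a motif of 12.4% of windows, and 0 GC boxes. GC content was 72.4% for Rgs2, 48.4% for Rgs3, 76.4% for Rgs10 and 64.8% for Rgs19, against a median of 52.4% over all windows. A match describes the letters and is not evidence of a bound site, and no motif searched was found in all 3 windows of genes that fell.

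Rgs18, an R4 protein abundant in megakaryocytes and platelets (chromosome 1, 144752683 to 144775435, minus strand, GRCm38), showed the largest fall of the 8 on the log2(FPKM + 1) scale used here. By ratio of means, haloperidol over DMSO, it stood at 0.64, and only Rgs3 was lower, at 0.51. It stood at 80.7, 79.7 and 79.2 FPKM in the haloperidol libraries and at 118, 127 and 131 FPKM in the DMSO libraries. The groups were well apart, and each library had 1411 or more Rgs18 reads. The means were 79.9 ± 0.788 FPKM with haloperidol and 126 ± 6.97 FPKM with DMSO (SD, n = 3 each), a level 36.4% below the DMSO mean. The log2 fold change was -0.64 (SE 0.05, limma adjusted p = 1.47e-04), and it ranged from -0.69 to -0.61 when each library was left out in turn.

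Rgs19, first described as an interactor of the G alpha i subunit (chromosome 2, 181688419 to 181693977, minus strand), was at 44.0, 40.7 and 42.6 FPKM in haloperidol libraries and at 57.1, 49.5 and 54.4 FPKM in DMSO libraries. All haloperidol values lay below the lowest DMSO value. It averaged 42.4 ± 1.67 FPKM with haloperidol and 53.7 ± 3.89 FPKM with DMSO (SD, n = 3 each), with a log2 fold change of -0.33 (SE 0.06, limma adjusted p = 0.00781). Rgs18 and Rgs19 were the 2 of the 8 that stayed past the threshold in all 6 fits that left out a library.

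The R12 genes Rgs10 and Rgs14 were less abundant and both fell. Rgs10, a short protein of platelets, microglia and other myeloid cells (chromosome 7, 128373621 to 128418758, minus strand), was at 5.77, 4.67 and 6.30 FPKM with haloperidol, against 7.47, 7.33 and 7.84 FPKM with DMSO. The 3 DMSO libraries lay close together, above the more scattered haloperidol libraries. Its log2 fold change was -0.39 (SE 0.10, limma adjusted p = 0.0270), on 71 to 121 reads per library. Rgs14 pairs an RGS domain with Ras-binding domains and a GoLoco motif that holds G alpha i in its GDP form (chromosome 13, 55369732 to 55384687, plus strand). It was at 8.50, 8.49 and 6.27 FPKM with haloperidol and at 9.23, 11.6 and 10.8 FPKM with DMSO. The nearest values of the groups, 8.50 FPKM with haloperidol and 9.23 FPKM with DMSO, were close. Its log2 fold change was -0.40 (SE 0.12, limma adjusted p = 0.0441). Both calls were marginal, since each held in 1 of the 6 fits with a library left out: for Rgs10 without haloperidol replicate 3 and for Rgs14 without DMSO replicate 1. Their adjusted p in the other fits reached 0.0830 for Rgs10 and 0.138 for Rgs14. When low genes were kept, neither passed, with a limma adjusted p of 0.0763 for Rgs10 and 0.122 for Rgs14. The Rgs14 call also ended with upper quartile scaling (adjusted p = 0.0525).

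The third gene of the R12 group, Rgs12, did not pass. It was at 5.82, 5.77 and 4.87 FPKM in haloperidol libraries and at 5.51, 6.39 and 4.88 FPKM in DMSO libraries, with a log2 fold change of -0.02 (SE 0.11, limma adjusted p = 0.911, 95% interval -0.27 to 0.23). The ratio of Rgs14 to Rgs12 within a library was 1.46, 1.47 and 1.29 with haloperidol and 1.67, 1.81 and 2.22 with DMSO, without overlap (two-sided exact permutation p = 0.10, the smallest that 3 against 3 libraries can give). The ratio of Rgs10 to Rgs12 overlapped between the groups (exact permutation p = 0.20).

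Rgs3, whose gene makes several isoforms (chromosome 4, 62559847 to 62704001, plus strand), was the least abundant of the 8 and its mean with haloperidol was 49.5% below the DMSO mean. It was at 0.818, 0.791 and 0.603 FPKM with haloperidol, against 1.53, 1.64 and 1.21 FPKM with DMSO. The groups were clearly separate, on 58 to 76 reads with haloperidol and 118 to 154 with DMSO. The log2 fold change was -0.50 on the log2(FPKM + 1) scale (SE 0.14, limma adjusted p = 0.0332), a scale that understates changes of genes this low. Since Rgs3 met the 1 FPKM filter only through the DMSO libraries, the fit of every gene above 0 reads, with no such filter, also bears on it, and there its limma adjusted p was 0.0452. With a pseudocount of 0.1 it was -0.90, and with voom weights on recovered reads, a setting added after seeing the data, -0.98. The call held in 1 of the 6 fits with a library left out, that without DMSO replicate 3, with a limma adjusted p up to 0.110 in the others, and the table gives 1 value per gene, so isoforms were not told apart.

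Rgs2, an R4 protein that acts preferentially on the Gq class of alpha subunits (chromosome 1, 143999338 to 144004161, minus strand), was the most abundant of the 8 and ranked 249 by mean FPKM among all genes of the table. It was at 242, 241 and 244 FPKM with haloperidol, against 243, 219 and 233 FPKM with DMSO. The groups overlapped. Means were 242 ± 1.61 FPKM with haloperidol and 232 ± 12.5 FPKM with DMSO (SD, n = 3 each), with a log2 fold change of 0.06 (SE 0.05, limma adjusted p = 0.390) and a 95% interval of -0.05 to 0.18.

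Rgs1, which restrains chemokine responses of lymphocytes (chromosome 1, 144242296 to 144249242, minus strand), was at 49.0, 56.1 and 63.7 FPKM with haloperidol and at 49.5, 47.7 and 45.9 FPKM with DMSO. One haloperidol library lay within the DMSO range and the other 2 above it. Its log2 fold change of 0.23 (SE 0.09, limma adjusted p = 0.0957) did not pass, although it did without haloperidol replicate 1 (0.32, adjusted p = 0.0239) and with voom weights (0.23, adjusted p = 0.0289). Its direction was the same in every alternative tried. Rgs16, another R4 gene, induced in activated lymphocytes (chromosome 1, 153740349 to 153745468, plus strand), was at 0.944, 0.866 and 1.73 FPKM with haloperidol, against 2.25, 1.72 and 1.33 FPKM with DMSO. The groups overlapped, on 18 to 47 reads per library, and the log2 fold change was -0.35 (SE 0.19, limma adjusted p = 0.210, 95% interval -0.79 to 0.08). At this depth a fall of the size seen for Rgs10 lay within that interval. By ratio of means, haloperidol over DMSO, Rgs16 stood at 0.67 and Rgs10 at 0.74. The annotation places an antisense gene over 236 exonic bases of Rgs16, and the library kit keeps no strand, so reads of the pair cannot be told apart.

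**Figure D1:**
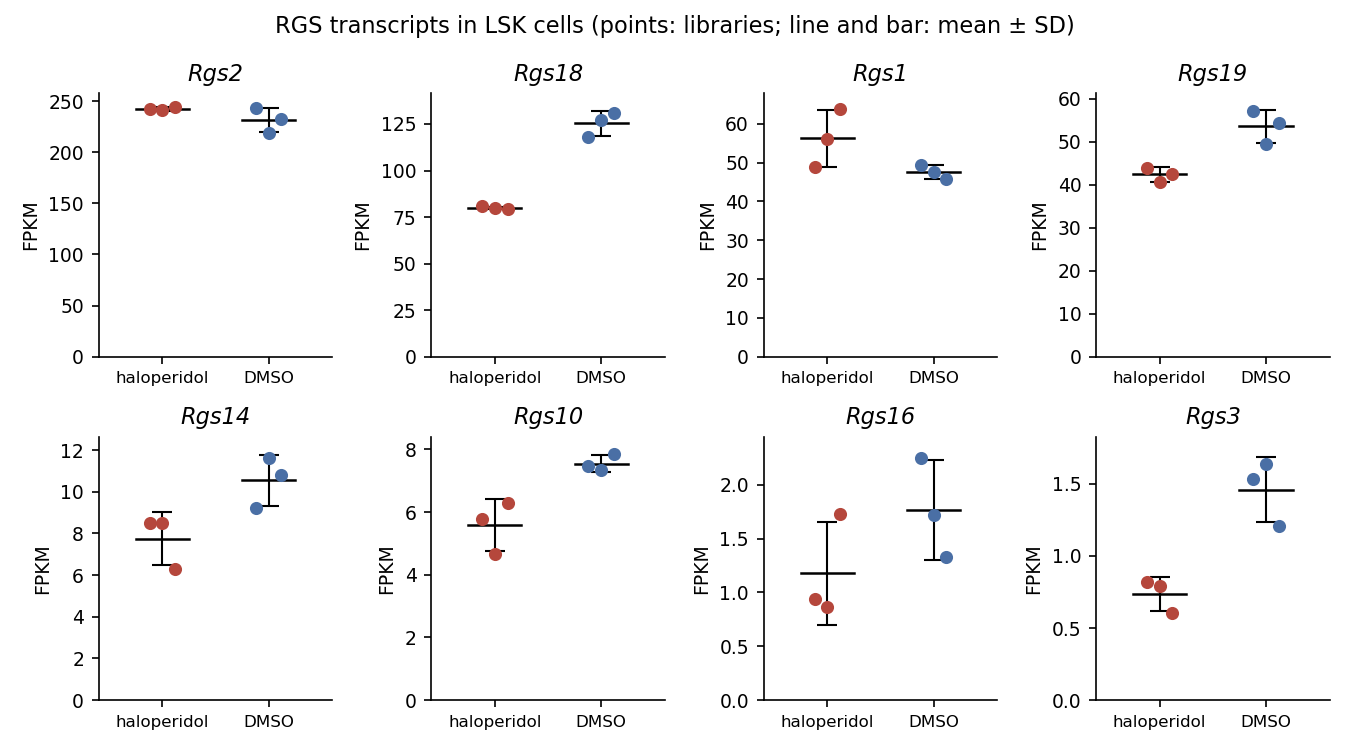
FPKM of the 8 RGS transcripts by library, haloperidol left of DMSO, with the mean and SD of 3 libraries each and every axis starting at 0. Haloperidol libraries lie below all DMSO libraries for Rgs18, Rgs19, Rgs14, Rgs10 and Rgs3, and the groups overlap for Rgs2, Rgs1 and Rgs16.

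**Figure D2:**
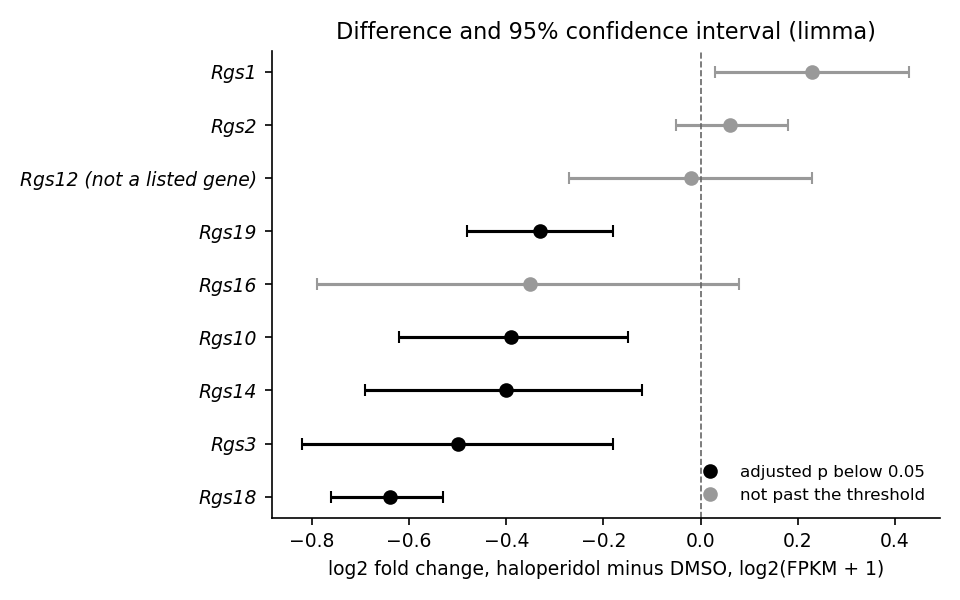
Log2 fold change of haloperidol minus DMSO on log2(FPKM + 1), with 95% confidence intervals from limma, for the 8 transcripts and Rgs12; black points passed an adjusted p of 0.05. On this scale Rgs18 has the largest fall at -0.64, and the intervals of Rgs2, Rgs12 and Rgs16 cross 0.

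The order of the levels was Rgs2, Rgs18, Rgs1, Rgs19, Rgs14, Rgs10, Rgs16 and Rgs3 with haloperidol, and in DMSO Rgs19 (53.7 FPKM) stood above Rgs1 (47.7 FPKM). Neighbours in that order whose libraries overlapped were Rgs14 and Rgs10 with haloperidol, and Rgs19 and Rgs1 as well as Rgs16 and Rgs3 with DMSO. Summed over the 8, the level was 431, 432 and 444 FPKM with haloperidol, against 488, 465 and 486 FPKM with DMSO, without overlap. Rgs18 alone differed by about as much as that sum, with means of 79.9 FPKM with haloperidol and 126 FPKM with DMSO. Within that sum Rgs2 made up 55.5% ± 0.569 with haloperidol and 48.3% ± 1.46 with DMSO, and Rgs18 made up 18.3% ± 0.458 with haloperidol and 26.2% ± 1.78 with DMSO (SD, n = 3 each).

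Rgs2, Rgs1 and Rgs18 lie in 1 run of 5 RGS genes on chromosome 1, all on the minus strand and spanning 776 kb. Between them lie Rgs13 and Rgs21, which had 0 reads in all 6 libraries. Rgs18, at the far end of the run from Rgs2, fell, while Rgs2 and Rgs1 did not pass the test. The ratio of Rgs18 to Rgs2 within a library, which no rescaling of a library can change, was 0.334, 0.331 and 0.325 with haloperidol, against 0.484, 0.583 and 0.563 with DMSO. Rgs18 to Rgs1 was 1.65, 1.42 and 1.24 with haloperidol, against 2.38, 2.67 and 2.86 with DMSO. Neither ratio overlapped between the groups (exact permutation p = 0.10 for each, the smallest possible), whereas Rgs1 to Rgs2 did overlap (exact permutation p = 0.30). Both Rgs18 ratios restate the values of the single genes given above and are not separate evidence.

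**Figure D3:**
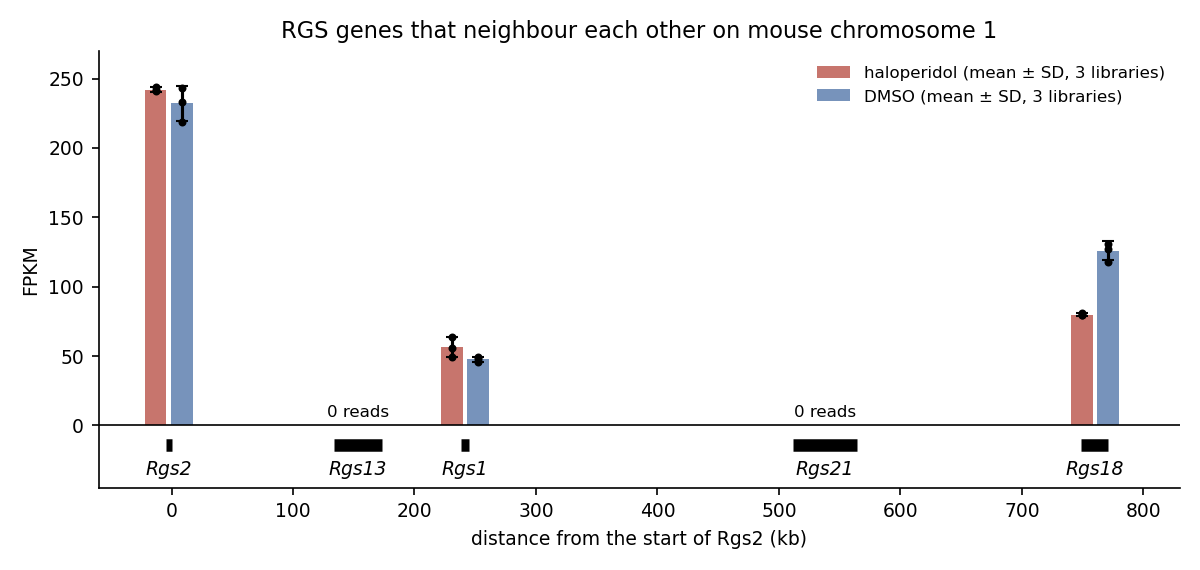
Mean FPKM (bars, with SD and the 3 libraries as points) of the 5 RGS genes that neighbour each other on chromosome 1, against their distance in kb from the start of Rgs2; black blocks are the genes. Rgs18 averages 79.9 FPKM with haloperidol and 126 FPKM with DMSO, Rgs2 242 and 232 FPKM, and Rgs1 56.3 and 47.7 FPKM.

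Among the 13 other RGS genes with a number, 12 averaged below 1 FPKM and were not tested. Of these, 9 had at most 2 reads in any library, 4 of them (Rgs4, Rgs6, Rgs13 and Rgs21) with 0 reads in all, and Rgs8, Rgs9 and Rgs11 had reads in all 6 libraries but at most 24. Of 7 tested genes on the list of other RGS-domain proteins, which includes Rgs12, 1 rose and 0 fell with limma (2 were lower at an unadjusted p under 0.05, and 1 with voom weights). The riser was Arhgef1, an exchange factor gene whose product also acts on G12 class subunits, at 45.6, 44.4 and 44.1 FPKM with haloperidol and 38.7, 37.5 and 34.9 FPKM with DMSO (log2 fold change 0.27, SE 0.06, limma adjusted p = 0.0103). The scaffold gene Axin1 (log2 fold change 0.12), the kinase anchor gene Akap10 (-0.21) and the sorting nexin genes Snx13 (-0.17), Snx14 (0.14) and Snx25 (-0.32) did not pass. Snx25 also passed as lower with rescaling to a common sum.

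RGS proteins act on the G protein alpha subunits. Of 12 alpha subunit genes tested, 2 rose and 1 fell (median log2 fold change 0.02), a share close to the 24.5% called among all genes. Gnai2, the abundant Gi subunit of blood cells, was at 430, 401 and 407 FPKM with haloperidol, against 419, 428 and 428 FPKM with DMSO (limma adjusted p = 0.524). Gna15, a Gq class subunit largely restricted to haematopoietic cells, fell to 37.0, 37.5 and 37.0 FPKM with haloperidol, against 53.0, 55.1 and 52.7 FPKM with DMSO (log2 fold change -0.52, SE 0.05, limma adjusted p = 2.52e-04). Gna14, of the same class, rose, with a log2 fold change of 0.58 (SE 0.10, limma adjusted p = 0.00481). Gna12 also rose, with a log2 fold change of 0.22, though not after scaling to a common FPKM sum, and its call held in 1 of 6 fits with a library left out. Of 10 beta and gamma subunit genes, 1 rose and 1 fell. The gamma subunit gene Gng11 fell (log2 fold change -0.45, limma adjusted p = 8.06e-04), Gng10 rose (0.40, adjusted p = 0.0110), and Gnb1, the most abundant on that list, did not pass (-0.07, adjusted p = 0.372).

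Of 10 genes of receptor kinases and the arrestin family, 4 rose and 0 fell with limma (0 were lower at an unadjusted p under 0.05 or with voom weights, median log2 fold change 0.19). Of all genes tested, 11.5% were called higher. The largest rises were in the alpha-arrestin genes Arrdc4 (log2 fold change 0.96, limma adjusted p = 4.56e-04) and Arrdc2 (0.84, adjusted p = 5.62e-04). The receptor kinase gene Grk6 (0.18, adjusted p = 0.0268) and Arrdc1 (0.21, adjusted p = 0.0497) also rose, though neither passed after scaling to a common FPKM sum. With a library left out, the Grk6 call held in 2 of 6 fits and the Arrdc1 call in 1. Apart from Grk6 the risers were alpha-arrestin genes, and the beta-arrestin genes on the list did not pass. Adrbk1, which encodes the receptor kinase GRK2, did not pass (0.03, adjusted p = 0.833). Of 6 adenylyl cyclase and phospholipase C beta genes tested with limma, 0 passed (1 was lower at an unadjusted p under 0.05, and 0 passed with voom weights). The most abundant, Adcy7, was at 16.2, 15.4 and 14.7 FPKM with haloperidol, against 15.5, 14.7 and 12.7 FPKM with DMSO (log2 fold change 0.10). Among all genes tested, 13.0% were called lower and 24.5% in either direction. Of 9 other regulators of G protein activity, 2 fell and 0 rose with limma (1 was higher at an unadjusted p under 0.05, and 0 with voom weights). Those that fell encode chaperones of new alpha subunits. Ric8, listed elsewhere as Ric8a, was at 21.9, 22.1 and 19.1 FPKM with haloperidol, against 29.5, 29.3 and 29.4 FPKM with DMSO (log2 fold change -0.47, SE 0.07, limma adjusted p = 0.00192), and Ric8b had a log2 fold change of -0.38 (adjusted p = 0.0172), a call that held in 2 of 6 fits with a library left out.

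Receptor genes moved both ways: of 34 tested, 9 fell and 5 rose (median log2 fold change -0.04). For comparison, 13.0% of all genes tested were called lower and 11.5% higher. Among the receptor genes that fell were Ccr9, a chemokine receptor of thymus-homing cells (log2 fold change -1.25, limma adjusted p = 9.73e-04), and the chemokine receptor gene Ccr7 (-0.56, adjusted p = 0.0172). Both averaged below 1 FPKM with haloperidol (0.961 FPKM for Ccr9 and 0.917 FPKM for Ccr7) and were tested only because of their DMSO level, 3.62 FPKM for Ccr9 and 1.82 FPKM for Ccr7. Gpr65, a proton-sensing receptor, had the largest rise of the 5 (0.59, adjusted p = 0.00128). Gpr56, an adhesion receptor of stem cells and the most abundant on the list, fell with a log2 fold change of -0.32 (adjusted p = 0.0365), a call that also held in 2 of 6 such fits.

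**Figure D4:**
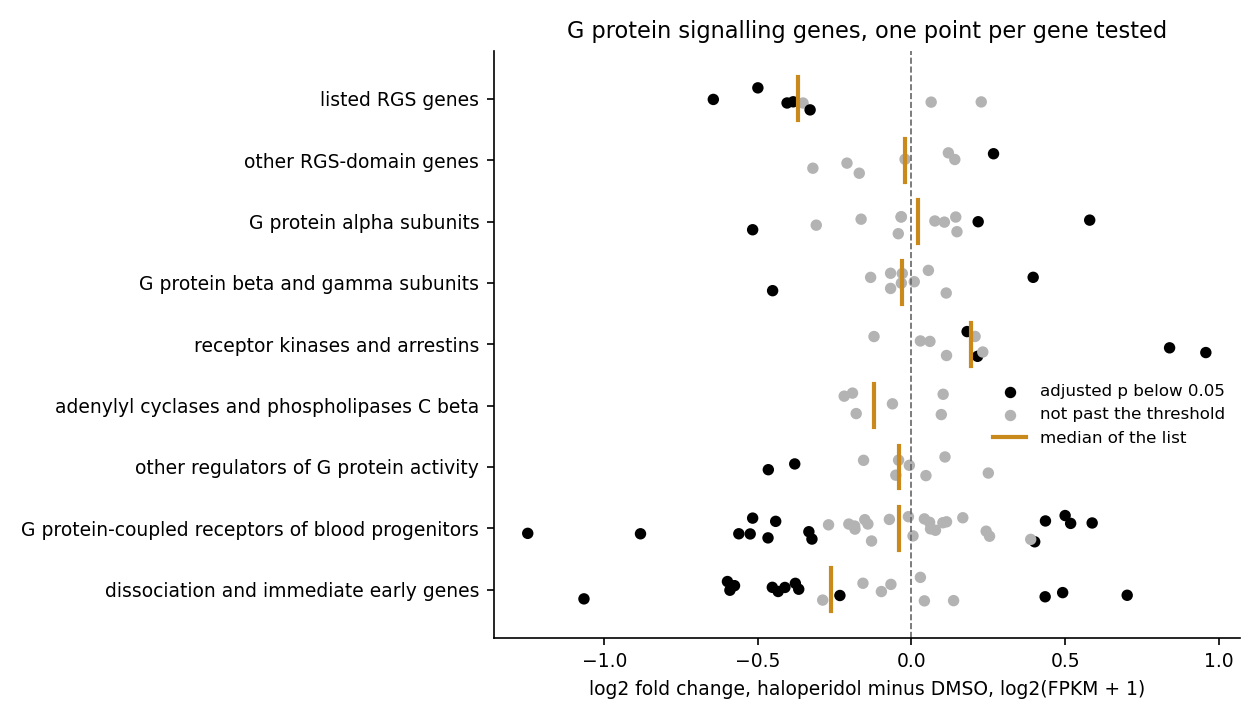
Log2 fold change of haloperidol minus DMSO for each tested gene of the listed RGS genes, the pathway lists and the immediate early genes; black points passed an adjusted p of 0.05 and the vertical bar is the list's median. The median lies at -0.37 for the 8 RGS genes, at 0.19 for receptor kinases and arrestins and at -0.26 for immediate early genes.

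Markers of other cell types also differed between the groups. The summed level of 10 megakaryocyte and platelet markers was 117 ± 7.78 FPKM with haloperidol and 87.0 ± 4.02 FPKM with DMSO (SD, n = 3 each). Most of that difference was Itga2b, which averaged 44.8 FPKM with haloperidol and 18.7 FPKM with DMSO. Of 8 tested, Itga2b and Itgb3 rose and 0 fell with limma (1 was lower at an unadjusted p under 0.05). That 1 was Ppbp, with a log2 fold change of -0.75 (limma adjusted p = 0.0505), while Pf4 had -0.07 (adjusted p = 0.639) and Gp6 had reads in 1 library. The 8 B cell markers summed to 24.9 ± 1.36 FPKM with haloperidol and 39.5 ± 1.66 FPKM with DMSO, with Pax5 detected in 1 library. All 4 tested were lower, but Cd79a, Vpreb1 and Vpreb3 averaged below 1 FPKM with haloperidol and were tested only because of their DMSO level. Cd79b, the other, averaged 22.8 FPKM with haloperidol and 32.2 FPKM with DMSO (log2 fold change -0.48, limma adjusted p = 0.00108). The 6 endothelial markers, of which stem cells also express several, summed to 32.2 ± 1.36 FPKM with haloperidol and 45.4 ± 1.37 FPKM with DMSO, with Esam and Emcn lower among 4 tested, the Emcn call in 0 of 6 fits with a library left out. Of the defining endothelial genes, Cdh5 had 0 to 2 reads with haloperidol and 0 with DMSO, and Kdr had 0 to 3 reads with haloperidol and 12 to 17 with DMSO. Of 20 immediate early genes, which cell dissociation can induce, 10 fell and 3 rose. Over all genes tested, 13.0% were called lower and 11.5% higher. The immediate early genes were led by the fall of Egr3 (log2 fold change -1.07) and the rise of Klf6 (0.70). Summed T and NK cell, monocyte, neutrophil, mast cell, erythroid and stromal markers overlapped between the groups, but single genes among them were called. All 3 mast cell and basophil markers tested were called, with Cpa3 (log2 fold change 0.79) and Mcpt8 (1.22) higher and Gata2 (-0.44), the most abundant in that sum, lower. Il7r was lower (-0.84) among T and NK cell markers, again tested only because of its DMSO level, and 1 of 7 neutrophil markers was higher. The part of these shifts in the RGS values was not tested.

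The transcripts most like Rgs18 over the 6 libraries, among 5426 other genes averaging at least 10 FPKM, were the phosphatase gene Inpp5b, the B lineage surface gene Cd72 and the interferon receptor gene Ifnar2. Their Pearson r with Rgs18 on log2(FPKM + 1) was 0.998, 0.998 and 0.997. The points are the same 6 libraries, in 2 groups, and 413 of those genes had an r above 0.95. Rgs18 was the only one of the 8 to pass the 0.58 in absolute log2 fold change set for this search.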

How the data were processed

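RNA of 3 haloperidol and 3 DMSO libraries was measured by sequencing. The SMART-Seq v4 and Nextera XT kits named in the labels' protocols keep no strand. Tools listed in the submitters' processing notes are DESeq2 1.18.1, HTSeq 0.6.1, TopHat2 2.1.1 and bcl2fastq 2.19.1.403, with the build mm10; no gene annotation or counting option is named there. FPKM, 1 column per library, are what the authors deposited. The FPKM were whole multiples of 1 read for 100.0% of the 20633 genes above 0 (within 0.001 reads), on a scale equal to median-of-ratios size factors. Recovered reads gave depth and 1 alternative.

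Genes averaging at least 1 FPKM (11436) were fitted on log2(FPKM + 1) with limma 3.58.1 (R 4.3.3; trend, two-sided, no covariate, Benjamini-Hochberg, threshold 0.05), a procedure also tested on simulated data. Fold changes are on that scale, which understates low genes, whereas means ± SD are in FPKM. Single values used exact permutation tests over libraries. Libraries of a group differed by more than counting noise (chi-square per degree of freedom 2.92 to 4.75).

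Members, lists and tests were chosen with earlier results of these data known. Named genes are the 8 members, tested RGS-domain genes and, per list, up to 4 non-overlapping calls of largest change plus the most abundant gene, and, for members past 0.58 in absolute log2 fold change, the 3 most correlated genes. Coordinates are from GENCODE M21 (GRCm38, the assembly of mm10) and promoters from RefSeq. Alternatives were other pseudocounts, filters and scalings, a robust prior, a replicate block and leaving out each library. Some genes that the rule names are not reported here.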

Additional observations from a re-analysis of the deposited data

How the results depend on the processing

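All 8 transcripts kept their direction under every alternative in which they were tested, and Rgs18, Rgs19, Rgs2 and Rgs16 also kept their side of the threshold. The number of the 8 past the threshold was 3 with no filter on low values and 2 to 3 with a library left out, against 5. The 3 without haloperidol replicate 1 were Rgs18 and Rgs19, as lower, and Rgs1, as higher (0.32, limma adjusted p = 0.0239). Without one library the number of all genes called was 1821 (without DMSO replicate 2) to 2148, against 2807. With no filter the changes of Rgs10 (-0.39, adjusted p = 0.0763) and Rgs14 (-0.40, adjusted p = 0.122) no longer passed, nor did Rgs14 with upper quartile scaling (-0.38). With a library left out the log2 fold change ranged from -0.57 to -0.44 for Rgs3, from -0.46 to -0.28 for Rgs10, from -0.49 to -0.28 for Rgs14 and from 0.13 to 0.32 for Rgs1, and the calls of the first 3 ended in 5 of 6 such fits. Rgs1 passed with voom weights (0.23), a setting chosen after seeing the data. With no filter 1 cyclase or phospholipase gene was called lower and 3 receptor genes higher. Common-sum scaling moved the median of all genes by -0.02 and upper quartile scaling by 0.02.

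Same-numbered libraries did not deviate together (correlations 0.01, 0.05 and 0.02, with 2 of 6 libraries closest to their own number), so the numbers were not taken as pairs. With the replicate block 2552 genes and 4 of the 8 passed, Rgs14 not (-0.40, adjusted p = 0.0550). The planned count tests were not run, since the deposited unit is FPKM. Rgs3 and Rgs16 could not be fitted with a minimum of 5 FPKM. With 18 to 47 reads per library, depth limits Rgs16 most. The causes of these changes were not tested.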
